A study of Mus musculus with 11 samples.

Results

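The Id genes, Id1, Id2, Id3 and Id4, encode the inhibitor of DNA binding proteins, and they were chosen by name: 4 genes of the 24898 listed across the deposited tables of the developing mouse cochlea. The tables hold 20504 (E14), 21635 (E16), 23137 (P1) and 21500 (P7) genes, and each of the 4 Id genes is present at every age. All 11 libraries came from wild-type CD1 mice with no treatment and were made from the epithelium of the floor of the cochlear duct with a droplet method that counts transcript ends (10x Genomics Chromium). Embryonic day 14 (E14) had 2 libraries, E16 had 3, postnatal day 1 (P1) had 4 and P7 had 2, each from the pooled cochleae of several animals of either sex, and the 2 P7 libraries carry the numbers 4 and 5. The question was how the Id genes differ between hair cells (HCs), supporting cells (SCs), Kölliker's organ (KO, the epithelium medial to the organ of Corti) and the cells lateral to it, and how this changes with age.

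Id proteins have a helix-loop-helix domain but no basic region to contact DNA. They bind the E proteins, the common partners of the tissue-specific basic helix-loop-helix (bHLH) factors, and so keep pairs such as that of Atoh1, the factor required for HC formation, off their E-box sites. Bone morphogenetic proteins (BMPs), acting through Smad proteins, are well known inducers of Id genes, and within the duct Bmp4 is a known product of cells lateral to the organ of Corti.

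The genes lie on 4 chromosomes of the mouse build GRCm38 in the GENCODE M21 annotation. Id1 spans 152736251 to 152737410 on the plus strand of chromosome 2, Id2 spans 25093799 to 25097140 on the minus strand of chromosome 12, Id3 spans 136143497 to 136145755 on the plus strand of chromosome 4 and Id4 spans 48261228 to 48266026 on the plus strand of chromosome 13. Their coding lengths, taken from the longest annotated coding transcript, are 504, 465, 357 and 483 bases, in that order. That transcript has 1 exon for Id1 and for Id2, so that their lengths may not be those of the spliced messages. Of the 4 genes, 3 (Id2, Id3 and Id4) had an entry among the RefSeq promoters of GRCm38.p6. The window of Id4 is shown because Id4 was the member whose pattern differed most from the others below. These are the 250 bases before its RefSeq start, chr13:48260866-48261115 on the plus strand, which overlap no GENCODE exon. Capitals mark GGCGCC, the palindrome known from the BMP-responsive element of Id1.

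Id4: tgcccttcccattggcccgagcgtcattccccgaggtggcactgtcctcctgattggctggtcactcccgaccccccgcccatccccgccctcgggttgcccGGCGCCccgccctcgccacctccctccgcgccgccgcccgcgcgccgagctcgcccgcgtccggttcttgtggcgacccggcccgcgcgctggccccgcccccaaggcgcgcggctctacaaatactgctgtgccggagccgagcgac

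GGCGCC was searched on both strands, as was the E-box pattern CANNTG, and the 2 patterns cannot overlap by more than an end base. GGCGCC occurred once in the window of Id4, from base 148 before the start, and once in that of Id2, from base 231, but not in that of Id3. It was present in 9.59% of 32851 windows of all RefSeq genes. Unlike the window of Id4, that of Id2 overlapped a GENCODE exon by 161 bases and that of Id3 by 250 bases. CANNTG occurred once in the window of Id2 and in neither of the other 2, against 66.2% of all windows. These matches describe letters only, and no binding was measured.

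Cells were placed in classes by marker lists that hold no Id gene. A cell entered a class where the mean z-score of its markers exceeded 0.5, led the next of 12 lists by 0.3 and rested on at least 3 detected markers. This took 9135 of 30634 cells (29.8%): 1914 HCs, 2442 SCs, 3331 KO cells and 1448 lateral cells. At E14 the SC class stands for prosensory cells, the progenitors of HCs and SCs. The paper reports distinct SC types from E16, when prosensory cells were still found beside them. The lateral class pools cells of the lesser epithelial ridge with Hensen's, Claudius and outer sulcus cells, in a mix that differed between ages. A finer gate within it placed 3 of 242 cells of E14 library 1 as Hensen's cells. At P1 it placed 45 of 176, 10 of 44, 16 of 48 and 60 of 147 in libraries 1 to 4. The part of this mix in the lateral values was not tested. The markers were detected as the 4 names require, with medians of 6 to 11 of 12 HC markers detected in HCs, 5 to 7 of 10 SC markers in SCs, 6 to 9 of 10 KO markers in KO cells and 5 to 7 of 10 lateral markers in lateral cells. HCs were few at E14 (20 and 39 cells a library, 59 in all) and still scored on SC markers (median z-score 0.63). At P7 the KO class held 96 cells and the lateral class 48, of which 45 and 14 were within 0.1 of the gate; of the 1290 P1 KO cells, 468 were. Libraries held 1247 to 5598 cells with a median of 2478 to 5647.5 unique molecular identifiers (UMIs) per cell. Over the 55 pairs of libraries the largest number of shared cell barcodes was 36, and the largest share of the smaller library, in another pair, was 0.958%. Doublets were not called, and the lead that the gate demands does not remove every cell with markers of several classes: P1 HCs had a median of 3 of 10 KO markers detected. Levels are means over the cells of a class in a library, given as UMIs per 1000000 of the cell's total (CPM), and since 1 UMI stands for 1 transcript end they were not divided by gene length.

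P1 library 1 and E16 library 3 stood apart from the other libraries of their age before any class was compared. Over all cells, Id1 was at 747 CPM in P1 library 1 and at 54.6, 165 and 99.4 CPM in P1 libraries 2 to 4. At E16 it was at 829 and 943 CPM in libraries 1 and 2 and at 247 CPM in library 3. The immediate early gene Fos, which dissociation is known to induce, moved with Id1 in both: it was at 666 CPM in P1 library 1 against 133, 245 and 173 CPM in the others, and at 638 and 737 CPM in E16 libraries 1 and 2 against 130 CPM in library 3. Jun went the other way, at 821.5 CPM in P1 library 1 against 1461 to 1707 CPM, and the summed level of the 14 stress genes listed was 4184 CPM there against 5573 to 6139 CPM. At E16 that sum went with Id1, at 4616 and 5080 CPM in libraries 1 and 2 against 3860 CPM in library 3. Over all cells Egr1, another immediate early gene, went with Id1 at both ages, at 161 CPM in P1 library 1 against 87.2 to 100.1 CPM and at 364 and 294 CPM in E16 libraries 1 and 2 against 52.4 CPM. By class, Egr1 in P1 library 1 was highest in SCs (152 CPM against 65.9 to 86.3 CPM) and lowest in HCs (73.8 CPM against 252 to 417 CPM). It was not the highest in KO or lateral cells. Jun also went against Id1 at E16, at 826 and 1058 CPM in libraries 1 and 2 against 1308 CPM in library 3. The part of handling in the Id1 levels was not tested. Class comparisons below were therefore made within libraries, and where leaving out P1 library 1 or E16 library 3 changed a call, or moved a called value by over 1.5 times, the value without it is given.

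**Figure D1:**
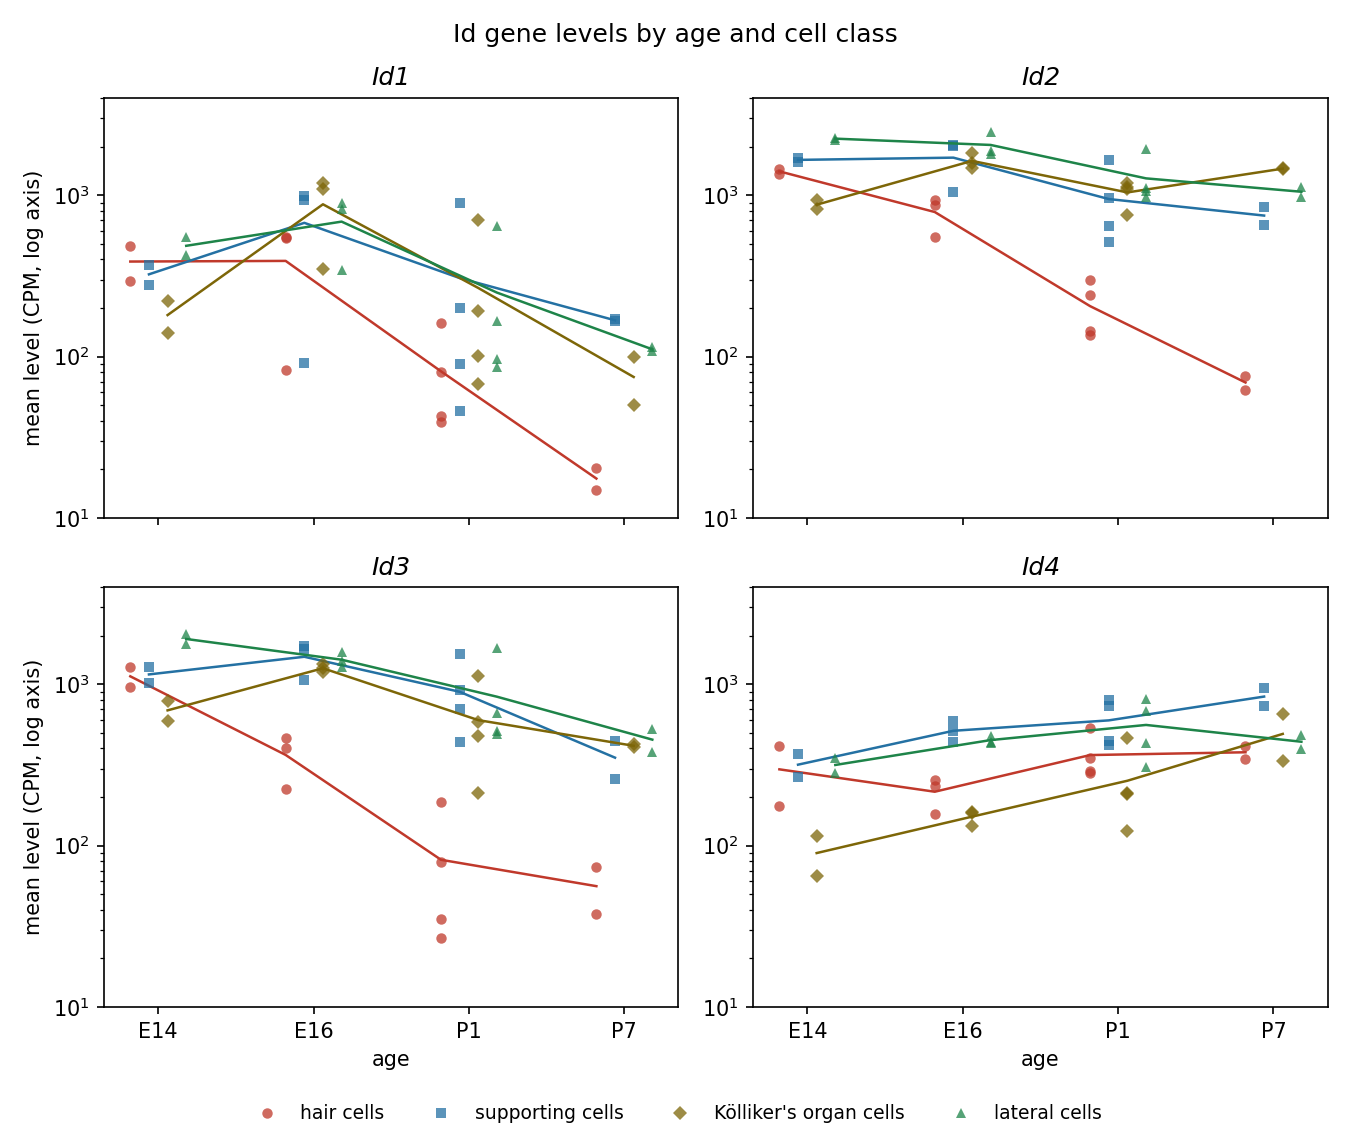
Mean level of each Id gene (CPM, log axis) by age in HCs (red circles), SCs (blue squares), KO cells (brown diamonds) and lateral cells (green triangles); each point is 1 library and lines join the means. On average HCs lie below the other classes after E14 for Id1, Id2 and Id3, whereas Id4 stays between 156 and 536 CPM in the HCs of all 11 libraries.

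Across the 16 combinations of class and age, Id2 was highest in E14 lateral cells (2240 ± 39.0 CPM, SD, n = 2) and lowest in P7 HCs (69.0 ± 9.62 CPM, n = 2). Id3 followed the same ends, from 1908 ± 197 CPM to 56.1 ± 25.6 CPM. Id1 was highest in E16 KO cells (878 ± 461 CPM, n = 3) and lowest in P7 HCs (17.5 ± 3.85 CPM). In that order most neighbours overlapped: P1 HCs lay apart from both neighbours for Id2, and for Id3 the E14 lateral cells lay above the next, E16 SCs. Id4 ran differently, highest in P7 SCs (839 ± 148 CPM, n = 2) and lowest in E14 KO cells (89.9 ± 35.7 CPM, n = 2), with the 5 groups of lowest mean being KO cells at E14, E16 and P1 and HCs at E16 and E14.

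HCs and SCs arise from common prosensory progenitors, and their comparison asks which Id genes part with HC differentiation. At E14, when the SC class stands for prosensory cells, no Id gene was called. Id1 was at 481 and 294 CPM in HCs and at 369 and 278 CPM in SCs of libraries 1 and 2. Id2 was at 1357 and 1451 CPM in HCs against 1705 and 1603 CPM in SCs, and Id3 at 1283 and 957 CPM against 1278 and 1023 CPM. HC and SC ranges overlapped for Id1, Id3 and Id4, and those of Id2 did not. The log2 fold changes, HC over SC on the log2(CPM + 10) scale, were 0.23 (SE 0.14) for Id1, -0.23 (SE 0.09) for Id2, -0.05 (SE 0.09) for Id3 and -0.19 (SE 0.21) for Id4, with adjusted p = 0.35, 0.148, 0.801 and 0.612 (limma, Benjamini-Hochberg over all genes tested). Of the 8825 genes tested at E14, 7.04% were called. In simulated data of this depth 13% of 2-fold and 70% of 4-fold changes were recovered, and 13 of 96 calls were false. The changed genes were drawn across levels, weaker ones than the Id genes included, so that these recovered shares are not the recovery for the Id genes. Small differences may not have been detectable. With the stricter gate Id2 was called lower in HCs (-0.43, adjusted p = 0.0368), and with clusters in place of the gate it was as well (-0.36, adjusted p = 0.0309).

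At E16, 3 of the 4 Id genes were lower in HCs, where 24.5% of 8969 tested genes were called, 13.0% as lower. Id3 was at 403, 466 and 226 CPM in the HCs of libraries 1 to 3 and at 1714, 1665 and 1062 CPM in their SCs. Id2 was at 937, 868.5 and 553 CPM in HCs and at 2045, 2027 and 1051 CPM in SCs. Id4 was at 256, 235.5 and 156 CPM in HCs and at 440, 516 and 588.5 CPM in SCs. For all 3 the HC libraries lay below every SC library. Id3 differed most, with a log2 fold change of -2.02 (SE 0.16, limma adjusted p = 2.393e-09), then Id4 with -1.24 (SE 0.16, adjusted p = 4.216e-06) and Id2 with -1.08 (SE 0.18, adjusted p = 5.948e-05). Id1 was lower in HCs of 3 of 3 libraries but was not called (log2 fold change -0.59, SE 0.25, limma adjusted p = 0.0922). Without E16 library 3, in which Id1 was at 82.1 CPM in HCs and 91.5 CPM in SCs, Id1 was called (-0.81, adjusted p = 8.47e-06), and it was also called with clusters in place of the gate (-0.61, adjusted p = 0.0362).

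By P1 all 4 Id genes were lower in HCs in 4 of 4 libraries, against 57.8% of 9029 tested genes called, 29.0% as lower. Id3 was at 186, 26.9, 79.2 and 35.1 CPM in the HCs of libraries 1 to 4 and at 1532, 437, 920 and 702 CPM in their SCs, and the ranges did not overlap. The SC mean was 10.99 times the HC mean, and the log2 fold change was -3.49 (SE 0.17, limma adjusted p = 9.006e-14). Id2 was at 299.7, 143, 242 and 136 CPM in HCs and at 1659, 513, 965 and 646 CPM in SCs, again without overlap. Its SC mean was 4.61 times the HC mean (log2 fold change -2.08, SE 0.16, limma adjusted p = 1.807e-10). Id1, at 161, 39.4, 80.6 and 42.9 CPM in HCs and at 891, 45.9, 199 and 89.9 CPM in SCs, overlapped between classes across libraries and was lower only within them. In library 2 its HC level was 85.8% of the SC level and in library 1 it was 18.1%, and the log2 fold change was -1.18 (SE 0.21, limma adjusted p = 4.7e-05). Without P1 library 1 it was -0.77 (adjusted p = 0.001575). Id4 differed least, at 347, 291, 283 and 536 CPM in HCs and at 730, 419, 444 and 796 CPM in SCs. Its log2 fold change was -0.69 (SE 0.20, limma adjusted p = 0.00479), which was not called with clusters in place of the gate (-0.38, adjusted p = 0.146).

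At P7 the 4 genes were again lower in HCs in both libraries, with no overlap, where 24.7% of 8737 tested genes were called, 12.9% as lower. Id2 was at 75.8 and 62.2 CPM in HCs and at 840.5 and 654 CPM in SCs (log2 fold change -3.25, SE 0.18, limma adjusted p = 1.166e-06). Id1 was at 14.8 and 20.3 CPM in HCs against 166 and 169.7 CPM in SCs, Id3 at 74.2 and 37.9 CPM against 260 and 442 CPM, and Id4 at 414 and 344 CPM against 944 and 734 CPM. The SC means exceeded the HC means 9.56, 10.8, 6.26 and 2.21 times for Id1, Id2, Id3 and Id4. The log2 fold changes of Id1, Id3 and Id4 were -2.70 (SE 0.33), -2.46 (SE 0.32) and -1.12 (SE 0.21), with limma adjusted p = 0.000158, 0.000247 and 0.00253. With the stricter gate the calls of these 3 were lost at values of -2.94, -2.43 and -1.11 (adjusted p = 0.439, 0.0505 and 0.0911). With clusters those of Id3 and Id4 were lost (adjusted p = 0.062 and 0.101). The 4 classes of an age shared a single fit and its estimate of the spread. The stricter gate left 5 and 8 KO cells and 7 and 13 lateral cells in P7 libraries 4 and 5. It kept 111 and 137 HCs and 67 and 58 SCs. The part of the small classes in the lost calls was not tested.

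**Figure D2:**
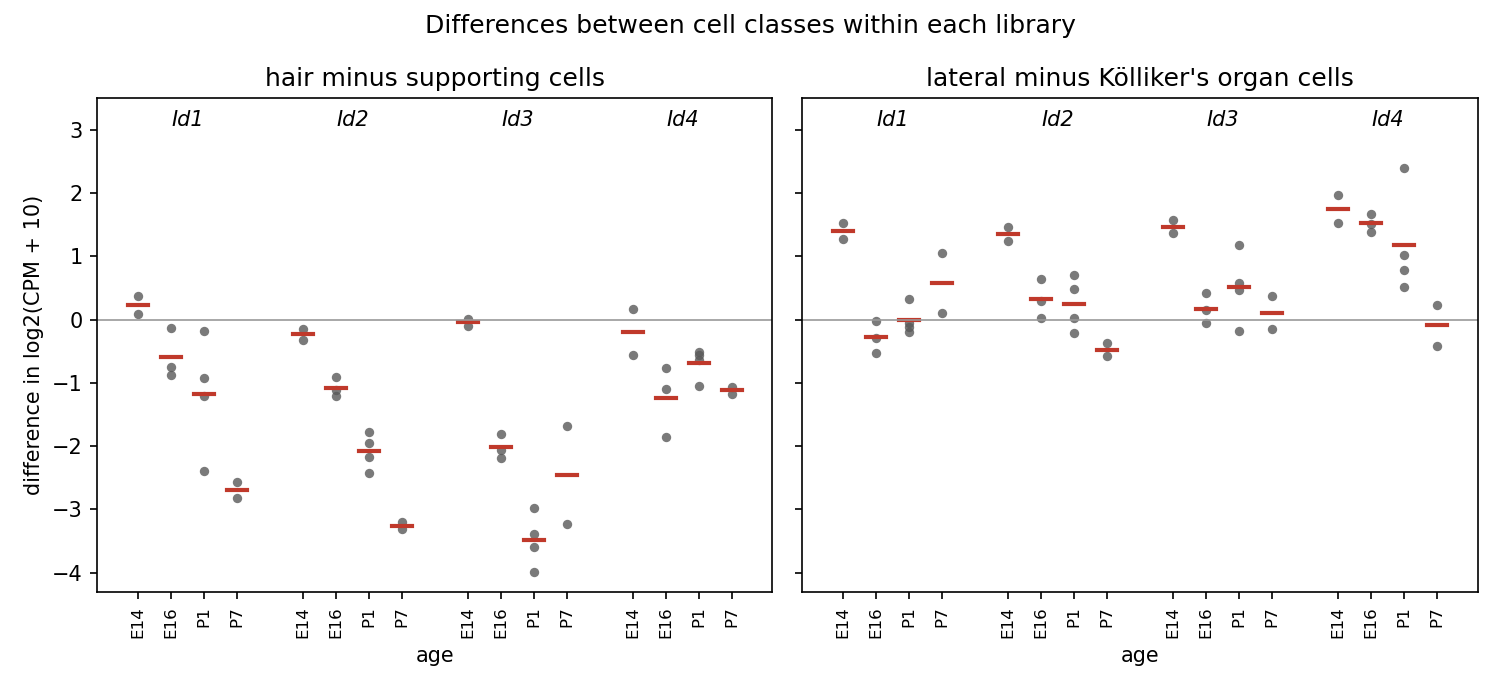
Difference in log2(CPM + 10) within each library for HCs minus SCs (left) and lateral minus KO cells (right), by Id gene and age; points are libraries and red bars their means. The HC minus SC difference of Id2 goes from -0.23 at E14 to -3.25 at P7, while the lateral minus KO difference is above 1 for all 4 genes at E14.

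Whether the HC to SC difference itself changed from E14, when the SC class stands for prosensory cells, to P1 was tested on the per-library differences. It changed by -3.44 for Id3 (SE 0.30, limma adjusted p = 2.402e-08), by -1.85 for Id2 (SE 0.18, adjusted p = 9.733e-08) and by -1.40 for Id1 (SE 0.38, adjusted p = 0.00731), all on the log2 scale. For Id4 the change was -0.50 (SE 0.25, adjusted p = 0.148). Of 9137 genes tested, 28.5% were called, 11.8% in the negative direction, and the median change over all genes was 0.11. The call for Id1 was lost without E14 library 1 (-1.26, adjusted p = 0.0708), with the stricter gate (-1.10, adjusted p = 0.0613), with no filter on low values (adjusted p = 0.0553) and with library quality weights (-1.39, adjusted p = 0.0774), and Id4 was called without E14 library 2 (-0.86, adjusted p = 0.0361).

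Within HCs, Id1, Id2 and Id3 fell between E14 and P1, and Id4 was not called. The same cells had a median z-score on SC markers of 0.63 at E14, 0.07 at E16 and -0.16 at P1. Each score is relative to all cells of its own age, so that the 3 values do not measure a fall in level. The part of SC markers in the Id changes, and in that of the HC minus SC difference, was not tested. The P1 mean of Id3 was 81.7 ± 73.0 CPM (SD, n = 4) against 1120 ± 230 CPM (n = 2) at E14, 13.7 times higher at the earlier age, and for Id2 and Id1 the E14 mean was 6.84 and 4.79 times that at P1. No P1 library reached the E14 range for these 3 genes, where 33.6% of 9000 tested genes were called, 13.7% as lower. The log2 fold changes were -3.93 (SE 0.47) for Id3, -2.79 (SE 0.30) for Id2 and -2.28 (SE 0.56) for Id1, with limma adjusted p = 4.753e-06, 1.339e-06 and 0.00414. Id4 averaged 297 ± 169 CPM at E14 and 364 ± 118 CPM at P1 (log2 fold change 0.36, SE 0.32, limma adjusted p = 0.416). From P1 to P7, Id2 fell again by 1.38 on the log2 scale (SE 0.30, limma adjusted p = 0.00307), to 75.8 and 62.2 CPM, where 16.6% of genes were called, 9.90% as lower. Stress genes moved with this step in the same cells: 6 of the 13 tested were called, all higher at P7, where 6.72% of all genes were higher, and their median was 0.95 against -0.06 over all genes. Hspa1a, a heat shock gene, was at 2129 and 1009 CPM in P7 HCs and at 0.638 to 9.80 CPM in P1 HCs. The part of this in the Id values was not tested. The changes of Id1 (-1.54, SE 0.56), Id3 (-0.21, SE 0.47) and Id4 (0.10, SE 0.32) were not called (adjusted p = 0.068, 0.826 and 0.881), and Id1 was called without P1 library 2 (-1.77, adjusted p = 0.0453). In simulated libraries as shallow as the E14 HCs, 117 of 232 calls were false, 5 of them in genes of at least 100 CPM. With library quality weights 4 of 53 were false and none of those was at or above 100 CPM. The simulated libraries differed by an SD of 0.3 on the log2 scale. Id3 spread more widely, from 26.9 to 186 CPM over the HCs of the P1 libraries, so these false shares may not hold for the Id genes. Id1 was not called without E14 library 1 (-1.93, adjusted p = 0.0532), and the fall of Id2 to P7 was not called without P7 library 5 (-1.25, adjusted p = 0.0772).

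In the other classes fewer Id genes were called between ages. The SC class, prosensory at E14, had no Id gene called between E14 and P1, where 4.48% of 8654 genes were called. Its log2 fold changes were -0.87 for Id1 (SE 0.82), -0.94 for Id2 (SE 0.36), -0.49 for Id3 (SE 0.36) and 0.85 for Id4 (SE 0.27), with limma adjusted p = 0.614, 0.151, 0.502 and 0.0856. Id3 fell in SCs from 898 ± 467 CPM at P1 to 351 ± 129 CPM at P7 (log2 fold change -1.24, SE 0.36, limma adjusted p = 0.0276), where 11.9% of genes were called, 7.03% as lower, and this call was lost without P1 library 3 (-1.18, adjusted p = 0.0623) or P7 library 4 (-0.86, adjusted p = 0.328). In KO cells none of the 4 was called from E14 to P1 or from P1 to P7, where 5.55% and 20.9% of 8497 genes were, and Id4, at 115 and 64.7 CPM at E14, 123, 213, 208 and 466 CPM at P1 and 651 and 334 CPM at P7, had log2 fold changes of 1.28 (SE 0.39, limma adjusted p = 0.0701) and 1.02 (SE 0.39, adjusted p = 0.0785). The second was called without P1 library 4 (1.36, adjusted p = 0.00755) or P7 library 5 (1.49, adjusted p = 0.0489). In the same cells 7 of 13 stress genes were called from P1 to P7, 6 of them higher, with a median of 1.19 against -0.15 over all genes, and their part in the Id values was not tested. Lateral cells gave no call either, including from P1 to P7, where 9.90% of genes were called. Their Id3 change from E14 to P1 was -1.37 (SE 0.35, limma adjusted p = 0.0548), their Id1 change -1.40 (SE 0.53, adjusted p = 0.241) and their Id2 change -0.87 (SE 0.27, adjusted p = 0.126), against 1.74% of 8697 genes called. P1 library 1 decided these values: without it Id1, Id2 and Id3 were called lower in P1 lateral cells (-2.01, -1.09 and -1.76, with adjusted p = 0.00436, 0.00981 and 0.000312), Id2 was called lower in P1 SCs (-1.26, adjusted p = 0.0142) and Id4 higher in P1 KO cells (1.56, adjusted p = 0.0135). The change of Id1 in SCs from E14 to P1 was -1.65 without that library and was again not called (adjusted p = 0.183). The median over all genes was itself -0.15 to -0.17 in the KO and lateral comparisons of ages.

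Transcripts freed from other cells reach every droplet, so the HC level of each Id gene was set beside that of transcripts that HCs should lack. Mia, Lum, Col9a1, Cnmd and Rgcc are abundant in KO cells at P1, and their P1 HC level was on average 2.21% (Lum) to 4.2% (Col9a1) of the level over all cells of the library, with 7.27% the highest in any library. The P1 values of the Id genes were higher: 46.4% for Id1 (21.5 to 72.1%), 23.3% for Id2 (16.3 to 27.3%), 12.5% for Id3 (7.16 to 16.3%) and 134% for Id4 (118 to 141%). Id3 in P1 library 4, at 7.16%, was thus the 1 value not above that range over all libraries. Within library 4 itself the 5 references were at 2.05 to 4.34%, below Id3. At P7, Id2 was at 6.06 and 5.02% in libraries 4 and 5, close to the 4.80 and 4.87% of Col9a1, and Id3 was at 15.0 and 6.02%. Rgcc, at 7.79 CPM in KO cells and 11.2 CPM in HCs at P7, no longer served as a reference there. The other references were lower, Mia at 4.2 and 2.45%, Cnmd at 3.91 and 2.34% and Lum at 2.19 and 0.757%, so that Id2 lay above all 4 in both P7 libraries, and least above Col9a1. How much of the P7 Id2 signal in HCs was free RNA was not tested.

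**Figure D3:**
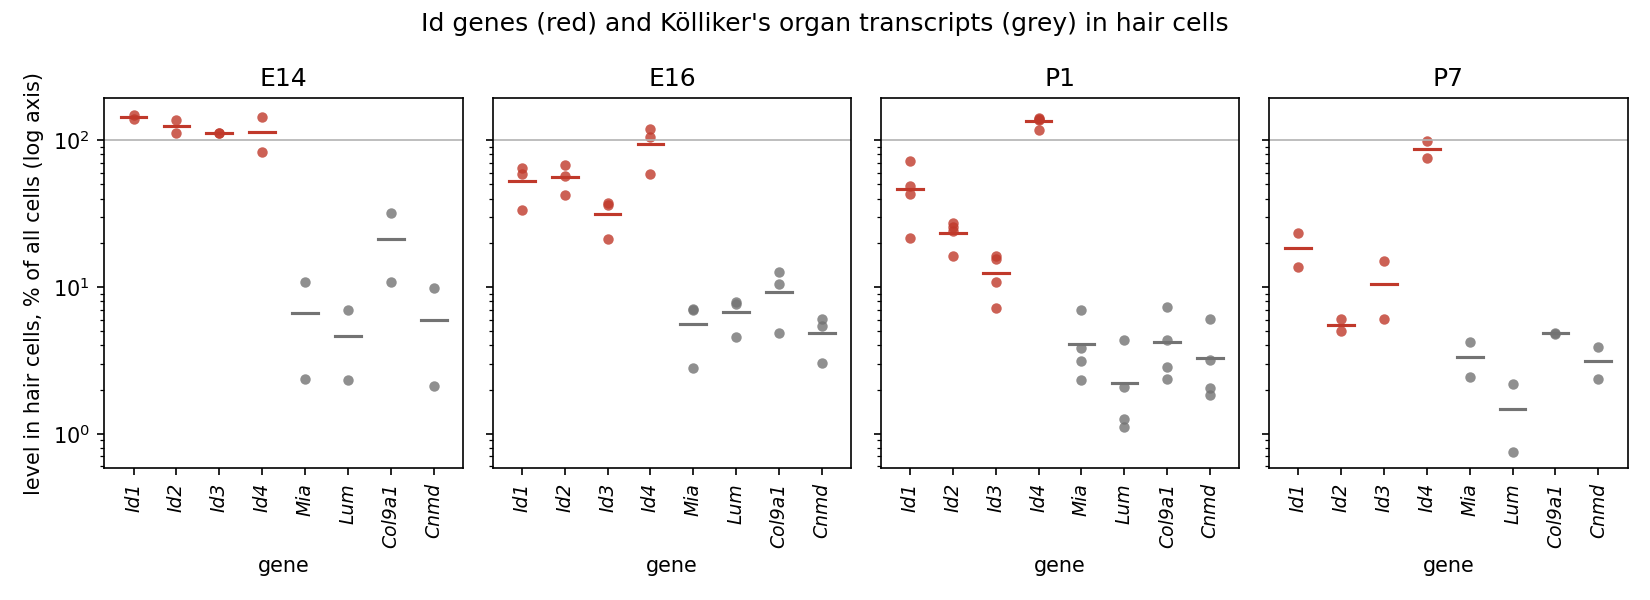
Level in HCs as a percent of the level over all cells of the same library (log axis), by age, for the Id genes (red) and for 4 KO transcripts (grey); points are libraries and bars their means, and the thin line marks 100%. Id1, Id2 and Id3 approach the KO transcripts with age, with Id2 at 5.54% and Col9a1 at 4.84% at P7, whereas Id4 stays at 87.6% or above on average.

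Shares of HCs with at least 1 UMI were compared after each cell had been drawn down to 1500 UMIs, a depth that every HC had. Id3 was detected in 90% and 69.2% of E14 HCs, in 19.4 to 39.9% at E16, in 4.38 to 23.0% at P1 and in 10.4 and 7.14% at P7. Before thinning the P1 range was 11.9 to 58.1%. Lum was detected in 1.88 to 9.91% of thinned P1 HCs and Mia in 8.12 to 43.7%, and the P1 shares of Id3 overlapped both ranges. These shares were not matched to Id3 in abundance. Over all P1 cells Lum was at 863 to 2159 CPM and Id3 at 248 to 1139 CPM, with Lum above Id3 in each library and Mia above Lum. Id4 was detected in 30 to 48.8% of thinned P1 HCs and in 44.4 and 35% at P7. The median UMI count of P1 HCs was 9614 in library 1 and 7417 in library 2, so that unthinned shares are not comparable with those of shallower classes.

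As the other 3 genes declined, Id4 came to make up most of the Id transcripts of HCs. The summed level of the 4 genes in HCs averaged 3209 CPM at E14, 1758 CPM at E16, 732 CPM at P1 and 521.5 CPM at P7. Id4 held 11.8 and 6.15% of that sum at E14, 11.1 to 15.4% at E16, 34.9 to 71.5% at P1 and 71.5 and 74.1% at P7. Its mean share was also higher at P7 than at E14 in the other classes. In SCs it held 9.15% at E14 and 13.2% at E16 on average, 24.5 ± 9.75% at P1 (SD, n = 4) and 39.7 ± 4.25% at P7 (n = 2). In the SCs of P7 libraries 4 and 5 it was the largest part, at 42.7 and 36.7% against 38.0 and 32.7% for Id2. In KO cells it held 4.81 ± 1.14% at E14 (n = 2) and 19.9 ± 7.70% at P7 (n = 2), and in lateral cells 6.37 and 21.4% on average. Id2 was the largest part in KO and lateral cells of every library at every age, with 60.0 and 51.0% on average at P7. These shares are descriptions and were not tested.

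Among P1 HCs, Id4 was lower in inner HCs, the primary sensory receptors, than in outer HCs, which amplify sound. The finer gate placed 177 inner and 216 outer HCs and left out the other 638 of the 1031 P1 HCs, in which Id4 averaged 363 ± 128 CPM. It averaged 285 ± 78.1 CPM in inner and 445 ± 119 CPM in outer HCs (SD, n = 4 libraries) and was lower in inner HCs in 4 of 4 libraries, although the ranges overlapped. The log2 fold change was -0.62 (SE 0.13, limma adjusted p = 0.000794), where 8.42% of 8850 genes were called, 4.38% as lower in inner HCs. Id1 (0.03, SE 0.27), Id2 (-0.28, SE 0.18) and Id3 (-0.01, SE 0.27) were not called (adjusted p = 0.972, 0.419 and 0.991). At P7, Id4 was at 163 and 151 CPM in the inner HCs of libraries 4 and 5 and at 582 and 391 CPM in their outer HCs. At E16 the order was the opposite, with 249, 387 and 450 CPM in the inner HCs of libraries 1 to 3 and 27.3, 288 and 46.3 CPM in their outer HCs, from 11 to 33 cells each. Neither of those ages was tested for this pair.

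**Figure D4:**
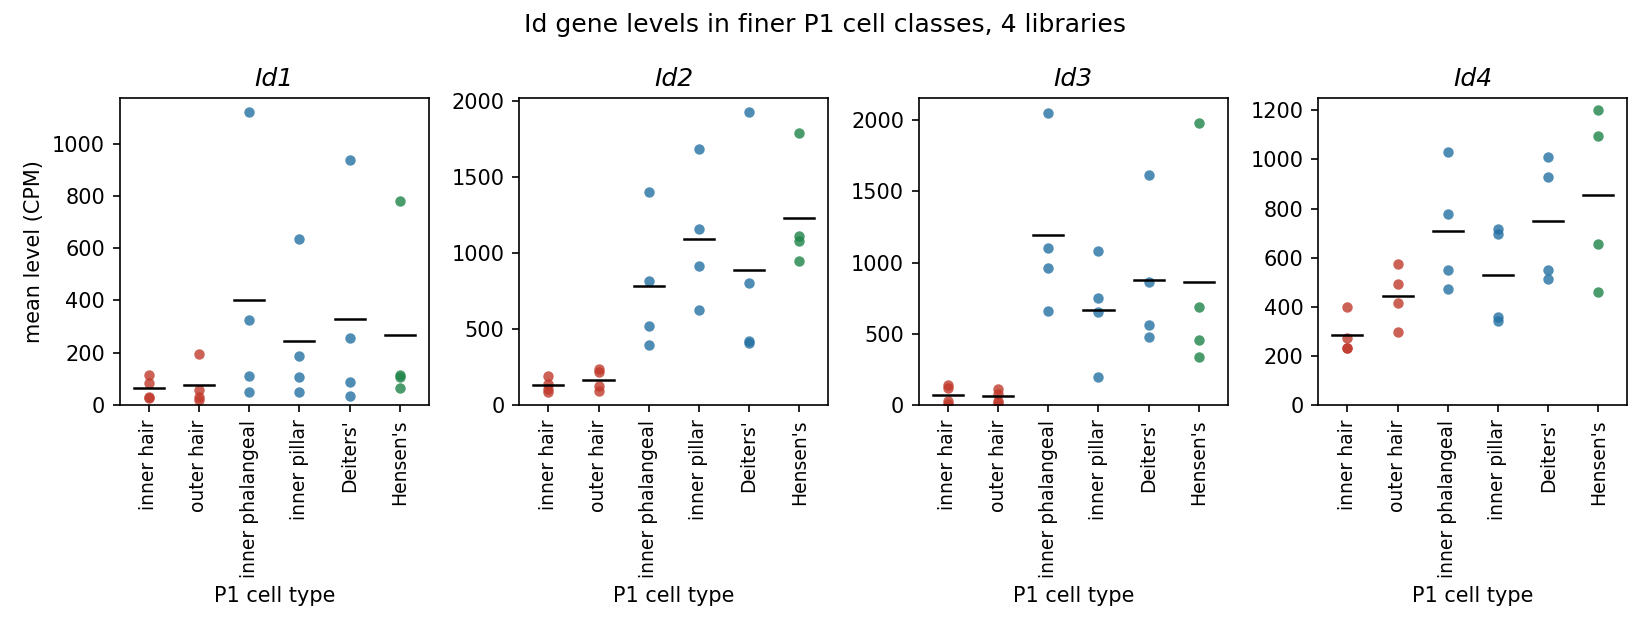
Mean level (CPM) of each Id gene in finer P1 classes, with HCs in red, SCs in blue and Hensen's cells in green; points are the 4 libraries and bars their means. Both HC types lie below the SC types for Id2 and Id3, and Id4 is at 285 CPM in inner and 445 CPM in outer HCs on average.

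Within the SCs and their lateral neighbours the Id genes were found in every type at P1. Id3 averaged 1193 ± 602 CPM in inner phalangeal cells, which surround inner HCs, 881 ± 516 CPM in Deiters' cells, which hold outer HCs, and 669.5 ± 366 CPM in inner pillar cells, which line the tunnel of Corti. Id4 averaged 854 ± 353 CPM in Hensen's cells, the first cells lateral to the organ of Corti, 751 ± 256 CPM in Deiters' cells, 707 ± 251 CPM in inner phalangeal cells and 530 ± 205 CPM in inner pillar cells (SD, n = 4). The spread between libraries exceeded most of these differences, which were not tested. At E16, Id4 was at 1323 and 1069 CPM in the 46 inner phalangeal cells of libraries 2 and 3 and averaged 949 ± 76.3 CPM in Hensen's cells (n = 3) against 325 ± 196 CPM in inner pillar cells (n = 3). Hensen's cells belong to the lateral class, and their part in its Id4 values was not tested.

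The comparison of lateral and KO cells asks how the Id genes are set across the width of the duct. At E14 all 4 were higher on the lateral side, where 5.47% of 8825 genes were called, 2.88% as higher. Id3 was at 2047 and 1768 CPM in lateral cells and at 788 and 590 CPM in KO cells, and Id2 at 2212 and 2267 CPM against 927 and 818.5 CPM. Id1 was at 548 and 423 CPM against 221 and 140.5 CPM, and Id4 at 350 and 282 CPM against 115 and 64.7 CPM. No gene overlapped between the classes. The log2 fold changes were 1.40 (SE 0.14) for Id1, 1.35 (SE 0.09) for Id2, 1.47 (SE 0.09) for Id3 and 1.75 (SE 0.21) for Id4, with limma adjusted p = 0.00043, 3.484e-05, 2.237e-05 and 0.00103.

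At E16 only Id4 of the 4 genes was called higher in lateral cells, and at P1 Id4 and Id3 were. At E16, Id4 was at 441, 434 and 477 CPM in lateral cells and at 132, 160 and 161 CPM in KO cells (log2 fold change 1.52, SE 0.16, limma adjusted p = 7.393e-07), where 10.9% of 8969 genes were called, 6.14% as higher. The values of Id1, Id2 and Id3 were -0.28 (SE 0.25), 0.32 (SE 0.18) and 0.17 (SE 0.16), with adjusted p = 0.58, 0.314 and 0.596. Without E16 library 3, Id1 was called lower in lateral cells (-0.41, adjusted p = 0.0188). At P1, Id4 was at 686, 309, 432 and 811 CPM in lateral cells and at 123, 213, 208 and 466 CPM in KO cells, higher in 4 of 4 libraries (log2 fold change 1.18, SE 0.20, limma adjusted p = 0.000111), where 20.0% of 9029 genes were called, 11.7% as higher. Without P1 library 1 it was 0.77 (adjusted p = 9.479e-05). Id3 had a log2 fold change of 0.51 (SE 0.17, limma adjusted p = 0.0345), and this call was lost without P1 library 1, 2 or 3 (0.49, 0.29 and 0.53, with adjusted p = 0.103, 0.345 and 0.105). Id1 (-0.01, SE 0.21) and Id2 (0.25, SE 0.16) were not called (adjusted p = 0.978 and 0.3). At P7 no Id gene was called, where 1.05% of 8737 genes were: the values were 0.58 (SE 0.33), -0.48 (SE 0.18), 0.11 (SE 0.32) and -0.09 (SE 0.21) for Id1 to Id4, with adjusted p = 0.415, 0.222, 0.914 and 0.877. Clustering gave no P7 cluster that could be named KO and 1 lateral cluster of 17 cells, so these P7 values, and those of the P7 KO class elsewhere, have no counterpart in clusters. Of the 5 KO transcripts above, 1 was called between these classes at P7, as higher in lateral cells, where 0.755% of all genes were. Their median log2 fold change was 0.18 at P7 and -1.215 at P1, where 4 were called lower and 20.0% of all genes were called. Rgcc and Cnmd did not mark KO cells at P7. Rgcc averaged 7.79 CPM in P7 KO cells, and Cnmd was detected in 5.13 to 7.02% of thinned KO cells against 47.6 to 55.6% of thinned lateral cells. The part of this in the P7 Id values was not tested.

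The lateral to KO difference was itself smaller at P1 than at E14 for Id1, by -1.41 (SE 0.25, limma adjusted p = 0.00308), and for Id2, by -1.10 (SE 0.21, adjusted p = 0.00557), where 1.81% of 8672 genes were called, 0.669% in that direction. Cell cycle genes moved in the same contrast: 2 of the 3 tested were called, both in the positive direction (median 2.45 against 0.02), and in KO cells 6 of 6 tested fell from E14 to P1, where 5.55% of genes were called. Their part in the Id changes was not tested. For Id3 the change was -0.96 (SE 0.26, adjusted p = 0.068; without P1 library 2, -1.18 and adjusted p = 0.00995) and for Id4 -0.57 (SE 0.35, adjusted p = 0.771). With the stricter gate the calls of Id1 and Id2 were lost at values of -1.31 and -1.27 (adjusted p = 0.9999 and 0.107). That fit held all ages, and the stricter gate left 5 and 8 KO cells and 7 and 13 lateral cells in P7 libraries 4 and 5. The part of these small classes in the lost calls was not tested. The call for Id1 was lost without E14 library 2 (-1.29, adjusted p = 0.137), and that for Id2 without E14 library 1 (-1.21, adjusted p = 0.061) or library 2 (-0.99, adjusted p = 0.175).

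The BMP pathway was set beside the Id genes in the same comparison. Of 37 listed genes, 22 could be tested at P1, and 5 were higher and 2 lower in lateral cells, where 20.0% of all genes were called and 11.7% were higher; the median log2 fold change was 0.19 against 0.02 over all genes. At E14, 7 of 25 were higher and 2 lower (median 0.38 against 0.01), where 5.47% of all genes were called. At E16, 7 of 24 were higher and 3 lower (median 0.45 against 0.04), where 10.9% were called. At P7, 3 of 19 were higher and none lower (median 0.23 against 0), where 1.05% were called and 0.755% were higher. The ligand gene Bmp4 averaged 788 ± 432 CPM in lateral cells at E14, 673 ± 234 CPM at E16, 380 ± 175 CPM at P1 and 354 ± 44.9 CPM at P7. In P1 KO cells it averaged 1.54 ± 1.51 CPM, and the log2 fold change at P1 was 4.99 (SE 0.20, limma adjusted p = 8.022e-14). Fst, which encodes the ligand trap follistatin, averaged 1701 ± 759 CPM in P1 lateral and 1.79 ± 0.63 CPM in P1 KO cells (7.04, SE 0.27, limma adjusted p = 6.098e-14). Bmper, a secreted modulator of BMP ligands, and Smad6, an inhibitory Smad, had P1 log2 fold changes of 2.47 (SE 0.18) and 1.86 (SE 0.25), and the ligand gene Bmp7 one of 1.24 (SE 0.19). The 2 genes lower in P1 lateral cells were Hes1, a Notch target (-0.66, SE 0.22, adjusted p = 0.0365), and Sox9 (-0.57, SE 0.15, adjusted p = 0.00734). Bmp4 was called higher in lateral cells at all 4 ages, and both KO libraries were at 0 at P7 (5.18, SE 0.41). Since Bmp4 at every age, and Fst and Bmper from E14 to P1, averaged 4.03 CPM or less in KO cells, the size of their fitted values depends on the 10 CPM added: at P1 the ratio of means was 246 for Bmp4 and 952 for Fst. Its own difference did not change between E14 and P1 by a called amount (-1.06, SE 0.42, adjusted p = 0.366).

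**Figure D5:**
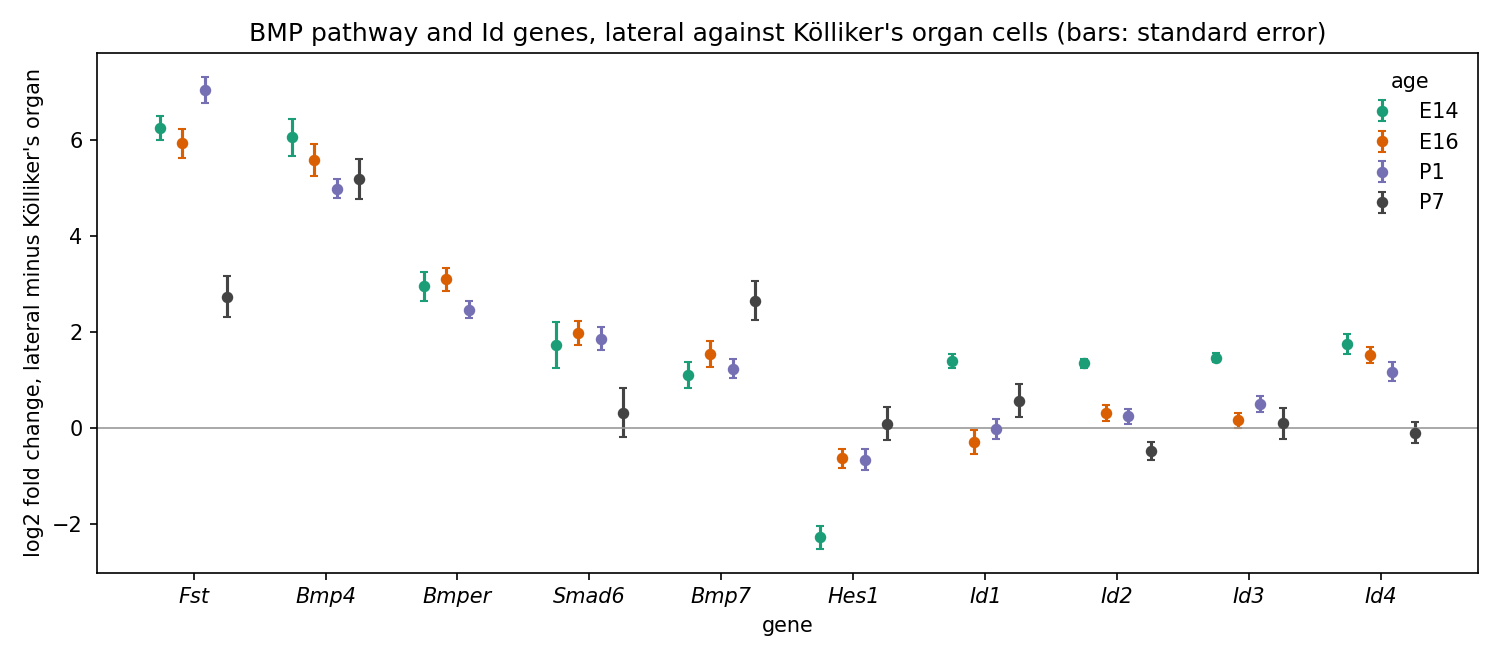
Log2 fold change of lateral over KO cells, with its standard error, for 6 BMP pathway genes and the 4 Id genes at each age; a gene without a point at an age was not tested there. Bmp4 is at 4.99 or above at every age on this scale, which adds 10 CPM to each level, while the values of Id1, Id2 and Id3 drop from 1.35 to 1.47 at E14 to between -0.48 and 0.58 afterwards.

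The E proteins, the partners that Id proteins bind, did not share one direction. Tcf3, which encodes E47 and E12, was lower in P1 HCs than in SCs, at 80.6 ± 19.1 against 134 ± 13.9 CPM (log2 fold change -0.68, SE 0.13, limma adjusted p = 0.000106), and Tcf12 was too (-0.46, SE 0.17, adjusted p = 0.0247). Tcf4 was higher in HCs, at 147 ± 40.9 against 50.2 ± 6.18 CPM (1.35, SE 0.21, limma adjusted p = 8.007e-06), in 4 of 4 libraries. Tcf4 was also higher in HCs at E16 (0.69, adjusted p = 0.0131) and P7 (1.74, adjusted p = 0.00378), and Tcf3 lower at P7 (-1.16, adjusted p = 0.0148). At E14 none of the 3 was called. Tcf4 was higher in lateral than in KO cells at E16 (1.09, SE 0.20, limma adjusted p = 0.000538) and P1 (1.28, SE 0.21, adjusted p = 8.207e-05) but was not called at E14 (1.11, SE 0.32, adjusted p = 0.0909). At P7 its mean was lower in lateral cells, at 82.25 CPM against 105.4 CPM in KO cells, and it was not called. Within HCs, Tcf3 fell from 298 CPM at E14 to 80.6 CPM at P1 (-1.78, adjusted p = 9.918e-05) and to 28.3 CPM at P7 (-1.23, adjusted p = 0.00493). The other classes also had a lower mean of Tcf3 at P1 than at E14. It was at 134 against 277 CPM in SCs, 128 against 291 CPM in KO cells and 145.5 against 269 CPM in lateral cells.

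Of the 18 listed bHLH genes, 11 could be tested between P1 HCs and SCs, and 4 were higher and 6 lower in HCs, where 57.8% of all genes were called in either direction. The Notch targets Hey1 (-4.54, SE 0.19, limma adjusted p = 1.175e-14) and Hes1 (-3.61, SE 0.22, adjusted p = 4.081e-12) were lower together with the Id genes. Nhlh1 (3.56, SE 0.18, adjusted p = 3.394e-13) and Hes6 (3.17, SE 0.20, adjusted p = 9.082e-12), which are known from differentiating neurons, were higher, with Nhlh1 at 0.138 CPM in SCs so that its value depends on the 10 CPM added. The stress genes were counted in the same comparison. At E14, 3 of 12 tested were called, all lower, and at E16 7 of 12, all lower, with a median log2 fold change of -0.71 against -0.02 over all genes. At P1, 8 of 12 were lower and 2 higher, and at P7 2 of 14 were lower and 3 higher. The part of this in the Id differences was not tested. The 5 transcripts listed for their level in P1 KO cells were called lower in HCs than in SCs at each of the 4 ages, against 4.09% (E14), 13.0% (E16), 29.0% (P1) and 12.9% (P7) of all genes.

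No Id gene was called between E14 KO cells with UMIs of 3 or more of 10 cell cycle genes and those with none: the log2 fold changes were -0.13 for Id1 (SE 0.20), 0.13 for Id2 (SE 0.11), -0.02 for Id3 (SE 0.13) and -0.26 for Id4 (SE 0.26), with limma adjusted p = 0.820, 0.635, 0.963 and 0.683, where 6.52% of 8679 genes were called. Of the cell cycle genes, 6 of the 7 tested at E14 were lower in lateral than in KO cells, where 5.47% of all genes were called and 2.59% were lower, and their part in the Id differences was not tested.

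Over the 16 means of class and age, the levels of Id1, Id2 and Id3 ran together (Pearson's r on the log2 scale of 0.80 for Id1 with Id2, 0.87 for Id1 with Id3 and 0.94 for Id2 with Id3), whereas those of Id4 did not follow them (-0.18, -0.03 and -0.10). Of 9107 genes compared, the closest to Id2 were Cfl1 (0.94), Cd24a (0.94), Id3 (0.94) and Sox4 (0.92), and those closest to Id3 were Cd24a (0.94), Amotl1 (0.94), Id2 (0.94) and Speg (0.94). For Id1 they were Mif (0.95), Marcks (0.94), Rps26 (0.93) and Snhg6 (0.90). For Id4 the closest were Ush1c (0.85), Sfn (0.84), Rab11a (0.84) and Rnd2 (0.83). The 4 classes of an age share libraries, so the 16 points are not independent and these values are descriptions.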

How the data were processed

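The authors aligned reads to mm10 and counted UMIs with Cell Ranger 2.1.1, then filtered cells and genes and normalized in Seurat 2.0. The deposited values are on a natural log scale, ln of 1 plus 10000 times a gene's share of the UMIs of a cell; the log base was read from the values, and UMIs worked back from them were whole within 2% throughout. Samples were grouped by the labelled age. For each class and library with 5 or more cells, the level was the mean CPM of those cells. The main test was limma 3.58.1 (R 4.3.3) with a mean trend on log2(CPM + 10), for genes averaging 10 CPM or more and without the markers used to gate, at an adjusted p of 0.05. Classes were compared with the library as a block, and ages over all 11 libraries without one. P-values of age comparisons measure the spread between pooled collections. Those of class comparisons measure the spread that is left once the level of each library is taken out. Thinned shares and floors cover counting error only. Finer classes used a score and lead of 0.3 and 2 markers; clusters were drawn with leidenalg 0.10.2 (2000 variable genes without the Id genes, 30 components, 20 neighbours, resolution 2, seed 1). The fits were tested on simulated data with 200 changed genes. The members, marker lists and gene lists (E proteins, BMP pathway, bHLH, stress, cell cycle, KO transcripts) were chosen with earlier results of these data known. Named genes were the 4 Id genes, the 3 E proteins, the 6 BMP and 4 bHLH genes with the largest called P1 changes and the 4 genes closest to each Id gene; Sox9 was named after its values were seen.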

Additional observations from a re-analysis of the deposited data

Results flagged for a closer look

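P1 library 1 lay far from the other 3 libraries in 4 of the 40 groups of 4 libraries examined by Dixon's test. Among independent groups chance alone would mark about 1 in 20. The groups here share the same libraries, and Hensen's cells are part of the lateral class, so that rate does not apply to them. Id1 was at 779.5 CPM in its Hensen's cells, the nearest other library being at 113 CPM, and at 646.9 CPM in its lateral cells, the nearest being at 166 CPM. In the same lateral cells Id2 was at 1931 CPM, next to 1115 CPM, and Id3 at 1675 CPM, next to 668 CPM. Fos over all cells of that library was 666 CPM and Jun 821.5 CPM, and the part of either in the Id levels was not tested.

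The difference between classes depended on age in 5 cases, each by limma's test of the difference itself between P1 and E14. The HC minus SC difference changed by -1.404 for Id1, -1.846 for Id2 and -3.44 for Id3 on the log2 scale, and the lateral minus KO difference by -1.413 for Id1 and -1.101 for Id2. The values for Id2 and Id3 in HCs were called under every alternative tried.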

How the results depend on the processing

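Of 960 values of the 80 Id results under alternatives, 893 were counted as unchanged and 0 as reversed. A change of direction was counted only where either value was called. Uncalled values could change sign, as Id4 in HCs against SCs at E14 did (-0.56 and 0.17 with 1 library left out). Leaving out a library at E14 or P7 left class comparisons there with 1 library and no p-value, so that only the direction of called values was checked. Of 29 called results, 16 were called under every alternative that gave a p-value. Calls of weak genes at E14 and P7 rest on few HCs, KO and lateral cells. The cause of the moves below was not tested.

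With no filter on low values, adjusted p rose for Id3 in lateral against KO cells at P1 (0.51, adjusted p = 0.148), Id3 in SCs from P1 to P7 (-1.24, 0.114), the change of the HC minus SC difference of Id1 (-1.40, 0.0553) and that of the lateral minus KO difference of Id2 (-1.10, 0.0796). With a pseudocount of 1 CPM, Id3 in lateral against KO cells at P1 was at 0.52 (0.0708). With median centring it was at 0.46 (0.0575), Id3 in SCs from P1 to P7 at -1.15 (0.0551), Id4 in KO cells at 1.44 from E14 to P1 (0.0343) and at 1.16 from P1 to P7 (0.0376), and the lateral minus KO change of Id3 at -0.99 (0.0467). With the stricter gate, HC against SC values were -0.43 for Id2 at E14 and -2.94, -2.43 and -1.11 for Id1, Id3 and Id4 at P7, the HC minus SC change of Id1 was -1.10, and the lateral minus KO changes of Id1 and Id2 were -1.31 and -1.27. With clusters, HC against SC values were -0.36 for Id2 at E14, -0.61 for Id1 at E16, -0.38 for Id4 at P1 and -2.07 and -1.18 for Id3 and Id4 at P7, Id4 in SCs from P1 to P7 was at 0.91, and the lateral minus KO change of Id3 was -0.82. With pooled UMIs, Id1 in HCs from P1 to P7 was at -1.73, Id3 in lateral cells from E14 to P1 at -1.48 and the lateral minus KO change of Id3 at -1.03.

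Without the library block, Id1 (-1.18, 0.259) and Id4 (-0.69, 0.138) in HCs against SCs, Id3 in lateral against KO cells (0.51, 0.774), all at P1, and Id4 in inner against outer HCs (-0.62, 0.416) were not called. Same-numbered libraries of different ages did not deviate together (r from -0.147 to 0.0661 over 32 pairs), so the numbers were not taken as pairs; with the number as a replicate block, Id2 in HCs from P1 to P7 was at -0.77 (0.421) and Id3 in SCs at -1.40 (0.148), and calls went from 1496 to 378 in HCs and from 1026 to 377 in SCs. With library quality weights, chosen after seeing the data, called values were 0.44 for Id2 in lateral against KO cells at E16, -1.39 for Id1 in HCs and 0.76 for Id4 in SCs from P1 to P7, -1.06 for Id2 in SCs, -0.75 and 1.19 for Id3 and Id4 in KO cells and -1.40, -0.90 and -1.37 for Id1, Id2 and Id3 in lateral cells from E14 to P1, and -0.97 for the lateral minus KO change of Id3; the HC minus SC change of Id1 was -1.39 (0.0774).

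Leaving out each library in turn gave, from E14 to P1, -2.64 to -1.93 for Id1 in HCs, -1.26 to -0.70 for Id2 in SCs, 0.91 to 1.66 for Id4 in KO cells, and -2.01 to -1.09, -1.09 to -0.76 and -1.76 to -1.18 for Id1, Id2 and Id3 in lateral cells. From P1 to P7 it gave -1.77 to -1.18 for Id1 and -1.54 to -1.18 for Id2 in HCs, -1.61 to -0.86 for Id3 in SCs and 0.55 to 1.49 for Id4 in KO cells. HC against SC Id1 at E16 ranged from -0.81 to -0.45, lateral against KO Id1 at E16 from -0.41 to -0.16 and Id3 at P1 from 0.29 to 0.74. Without P1 library 1, HC against SC Id1 at P1 was -0.77 and lateral against KO Id4 at P1 was 0.77, both still called. The HC minus SC change ranged from -1.74 to -0.996 for Id1 and -0.86 to -0.13 for Id4, and the lateral minus KO change from -1.54 to -1.29, -1.25 to -0.94 and -1.18 to -0.73 for Id1, Id2 and Id3. Where an age was left with 1 library, comparisons of ages took that library to vary like the others. Comparisons of classes at that age then had no p-value.

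Counts of genes called moved by over 1.5 times as follows. HC against SC at E14 (621) gave 154 with no filter, 393 with a pseudocount of 1, 1122 with clusters and 261 with weights; at P7 (2157) 656 with the stricter gate, 1211 with clusters and 3906 with weights. Lateral against KO gave 313 with no filter and 1802 with weights at E14 (483), 579 at E16 (976) and 713 at P1 (1808) without the block, and at P7 (92) 5 with no filter, 37 with a pseudocount of 1, 194 with pooled UMIs, 52 without the block and 38 with weights. From E14 to P1, SCs (388) gave 840 with clusters and 1358 with weights, KO cells (472) 32 with the stricter gate, 782 with clusters and 2887 with weights, and lateral cells (151) 88 with no filter, 51 with the stricter gate, 45 with clusters and 1413 with weights. From P1 to P7, HCs (1496) gave 2907 with weights, SCs (1026) 1758 with clusters, and lateral cells (861) 520 with no filter, 1689 with clusters and 210 with weights. The HC minus SC change (2602) gave 1592 with weights, and the lateral minus KO change (157) 87 with a pseudocount of 1, 17 with the stricter gate, 433 with clusters and 748 with weights. Inner against outer HCs (745) gave 202 and cycling against other KO cells (566) 266 without the block. The comparison of cycling KO cells at E16 was not run, since each library had fewer than 5 cycling cells.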

Other observations

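Classes set aside from the comparisons also held Id transcripts. In interdental cells, which line the medial edge of the duct, Id4 averaged 107 ± 0.893 CPM at E14 (SD, n = 2), 104 ± 22.2 CPM at E16 (n = 3) and 110 ± 41.7 CPM at P1 (n = 4), and 409 and 217 CPM in the 41 cells of P7 libraries 4 and 5. Id3 averaged 302 ± 215 CPM in P1 interdental cells. In cells of the cochlear roof at P1, of which there were 66 in 3 libraries, Id3 averaged 942 ± 476 CPM and Id4 665 ± 320 CPM. The 172 mesenchymal cells at P7 had Id3 at 2646 and 1973 CPM in libraries 4 and 5, with Id4 at 54.2 and 33.2 CPM. None of these values was tested.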
